A study of Mus musculus with 8 samples.

Results

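The proteasome genes examined here are the mouse genes whose names on the array begin with Psma, Psmb, Psmc, Psmd, Psme, Psmf or Psmg and a number, without the immunoproteasome subunits Psmb8, Psmb9 and Psmb10. The rule found 46 gene names on 90 of the 56605 non-control probes, and used no measured value. Of these probes 82 passed the filter on dim signals, and 44 genes could be tested among 18603 genes. Psma8 and Psmb11, known as subunits of germ cells and of thymus epithelium, were too dim: Of the wt arrays 2 carried Psma8 well above background and 1 carried Psmb11, and of the Card9-/- arrays 0 carried either. By known role the tested genes comprise 7 alpha ring subunits, 7 beta ring subunits, 6 ATPases of the cap's base, 11 further subunits of base and lid, 4 activators or inhibitors and 7 assembly chaperones. The remaining pair met the name rule alone: Psmc3ip encodes a recombination factor that is no proteasome subunit, and Psme2b is a copy of the activator gene Psme2. Psme2 itself was not analysed here.

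The RNA, labelled as that of peritoneal macrophages, came from wild-type (wt) and Card9-/- mice and was measured with Agilent arrays in a single colour, 4 for each genotype. The deleted gene encodes an adaptor by which C-type lectin receptors signal to NF-kB. Both groups had the same treatment: 1 ml of 3% thioglycolate into the peritoneum, cell collection 4 days later, and zymosan, a yeast cell wall preparation, at 500 mg/kg for 4 h. Cells of 4 or 5 mice per group were depleted of red cells, and those adhering after 3 h were kept. There was no untreated group among the arrays analysed, and strain, age and the deleted part of Card9 are not given in the sources used here. Whether each array stands for 1 mouse or for pooled mice is not stated, so p-values measure only the spread between these samples.

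The proteasome is the cell's main protease for ubiquitin-tagged proteins. Its core is a barrel of stacked alpha and beta rings with the proteolytic sites inside, and a cap of ATPases, ubiquitin receptors and a deubiquitinase binds, unfolds and feeds in the substrate. In macrophages it also releases NF-kB by degrading its inhibitors and supplies peptides for antigen presentation, and its subunit genes are known to be induced together when proteasome activity is short.

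Psmb5 and Psmc5 are shown by their probes because one carries a proteolytic site and the other had a low adjusted p among the members. Psmd11 and Psma3 are shown because the groups of the first did not overlap and the probes of the second disagreed. Each probe is 60 bases long, taken from the files and printed 5′ to 3′ in the sense of the transcript.
Psmb5 probe, chr14:55233161-55233220, mm9, minus strand: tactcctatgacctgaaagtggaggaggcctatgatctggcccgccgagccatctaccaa
Psmc5 probe, chr11:106124192-106124376, mm9, plus strand: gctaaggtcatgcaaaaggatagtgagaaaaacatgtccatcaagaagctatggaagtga
Psmd11 probe, chr11:80283406-80283920, mm9, plus strand: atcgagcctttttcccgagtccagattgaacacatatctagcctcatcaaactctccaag
Psma3 upstream probe, chr12:72094057-72094541, mm9, plus strand: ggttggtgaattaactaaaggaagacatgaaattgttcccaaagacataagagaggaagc
The genomic spans of the Psmc5, Psmd11 and Psma3 probes are wider than the probes themselves, so each spans a gap in its alignment to the genome.

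Promoters were read because subunit genes are known targets of Nfe2l1, which with small Maf proteins binds antioxidant response elements, and of the CCAAT factor NF-Y. The windows are the 250 bases before the RefSeq start (GRCm38.p6), and 40 windows of 38 members were matched. Both strands were searched for TGACNNNGC and for CCAAT. TGACNNNGC was in 5 member windows (12.5%), against 10.2% of all 32851 windows. CCAAT was in 14 member windows (35.0%), against 33.8% of all windows. Both shares lay near those of all promoters, and no member window held both motifs. The windows of Psmb5 and Psmb6, which encode proteolytic subunits, and of Psmc2, an ATPase whose groups did not overlap, are shown with the matches in capitals.
Psmb5, chr14:54617996-54618245, GRCm38.p6, minus strand: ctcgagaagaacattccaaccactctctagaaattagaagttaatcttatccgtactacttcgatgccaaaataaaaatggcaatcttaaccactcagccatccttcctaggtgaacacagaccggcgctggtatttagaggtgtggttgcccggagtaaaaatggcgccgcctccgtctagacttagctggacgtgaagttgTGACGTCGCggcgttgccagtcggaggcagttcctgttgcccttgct
Psmb6, chr11:70525107-70525356, GRCm38.p6, plus strand: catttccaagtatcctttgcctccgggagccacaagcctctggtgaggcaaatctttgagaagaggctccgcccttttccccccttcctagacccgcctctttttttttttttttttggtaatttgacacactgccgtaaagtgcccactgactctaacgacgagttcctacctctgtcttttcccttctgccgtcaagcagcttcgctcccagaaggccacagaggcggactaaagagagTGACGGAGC
Psmc2, chr5:21785025-21785274, GRCm38.p6, plus strand: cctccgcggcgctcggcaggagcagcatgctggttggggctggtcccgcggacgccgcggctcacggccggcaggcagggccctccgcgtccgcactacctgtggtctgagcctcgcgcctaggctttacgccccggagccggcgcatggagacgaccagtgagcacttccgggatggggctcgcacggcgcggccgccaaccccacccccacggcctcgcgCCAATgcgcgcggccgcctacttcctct
The TGACNNNGC match began 47 bases before the start in Psmb5 and 9 bases before it in Psmb6, and the CCAAT match of Psmc2 began 28 bases before it. A second Psmc2 window held neither motif. In Psmd9, which encodes an assembly chaperone, TGACCCCGC began 31 bases before the start. In Psma6, an alpha ring gene, CCAAT matches began 29 and 136 bases before it, the latter on the reverse strand. A second Psma6 window, at another start, held neither motif. A match is a description of the letters and was not tested against binding.

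Several facts of the arrays touch every value that follows. Slide 1, in 1 scan, held the wt arrays together with Card9-/- replicate 4. Card9-/- replicates 1 and 3 were on slide 2, and Card9-/- replicate 2 on slide 3, so genotype and slide can be separated only through Card9-/- replicate 4. The deleted gene, Card9, was above background in 3 wt arrays and in 0 Card9-/- arrays, and not in the library labelled wt replicate 1. The wt arrays carried Xist and the Card9-/- arrays the Y-linked Eif2s3y, so genotype and sex cannot be told apart. A summed level below is the log2 of the sum of the markers' unlogged values, so the brightest marker weighs most. Over the tested macrophage markers the summed level was 5.73 and 5.72 in wt replicates 1 and 2, 10.84 and 9.41 in wt replicates 3 and 4, and 6.72 to 8.17 in Card9-/-, so wt replicates 3 and 4 stood apart. The tested markers of resident peritoneal macrophages were Alox15, Timd4, Selp and Icam2. Their summed level was 2.27, 2.50, 8.19 and 6.30 in wt replicates 1 to 4 and 3.30 to 4.42 in Card9-/-. It rested mostly on Icam2, which alone gave 2.21 and 2.43 in wt replicates 1 and 2 and 3.06 to 4.32 in Card9-/-. In wt replicates 1 and 2 the other markers lay at -2.64 or below. All 4 markers had a lower mean in Card9-/- (median difference -1.14), and 0 passed limma's adjusted p of 0.05 or an unadjusted p under 0.05. Gata6, Vsig4 and Lbp were too dim to test. T cell markers were higher in Card9-/- for 10 of 10 genes (summed level 4.07 to 4.78 in wt, 5.15 to 6.47 in Card9-/-), and natural killer cell markers for 7 of 7 (1.49 to 2.56, and 3.31 to 5.60). Red cell markers had a higher mean in Card9-/- for 4 of 4 tested genes, with summed levels that overlapped (7.34 to 10.47, and 9.26 to 12.19). At an unadjusted limma p under 0.05 were 9 of 10 T cell, 6 of 7 natural killer cell and 1 of 4 red cell markers, against 7.22% of all genes tested, and 0 passed an adjusted p of 0.05. The Cd4 probe tested was well above background on all arrays. Another Cd4 probe was so on 2 wt and 0 Card9-/- arrays, and a further one on 0 arrays. Ncr1 was too dim to test. The part of these differences in the proteasome values was not tested, and fewer cells of a type cannot be told apart from less RNA per cell.

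A level is the log2 processed signal of a spot after subtraction of its array's 75th percentile, and 0 is therefore that percentile. Differences are Card9-/- minus wt in log2, with the standard error (SE) of limma's fit over all genes. They compare each probe with itself.

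No proteasome gene passed an adjusted p of 0.05 by limma (0 of 44), where 5 of 18603 genes did (0.0269%), 1 of them (0.00538%) lower in Card9-/-. At an unadjusted limma p under 0.05 there were 5 members (11.4%), all lower in Card9-/-, against 7.22% of all genes in either direction and 4.59% lower. The means of 40 of 44 members were lower in Card9-/-, against 56.3% of all genes. The median difference of the members was -0.37, and that of all genes was -0.088. All Card9-/- arrays lay below all wt arrays in 6 members (13.6%), against 3.69% of all genes. A mean more than 2-fold below that of wt was seen in 3 members (6.82%), against 8.03% of all genes. The 44 members include Psmc3ip and Psme2b, which met the name rule alone. Of the 42 genes with a proteasome role, 38 had a lower mean in Card9-/-, with a median difference of -0.33. Of these 42, 3 had an unadjusted limma p under 0.05, all lower in Card9-/-. That share was close to the 7.22% of all genes in either direction and above the 4.59% that were lower. In 5 of the 42 all Card9-/- arrays lay below all wt arrays, and in 2 the mean was more than 2-fold lower. The members thus gave small differences, mostly of one sign, none of which passed the test across all genes.

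**Figure D1:**
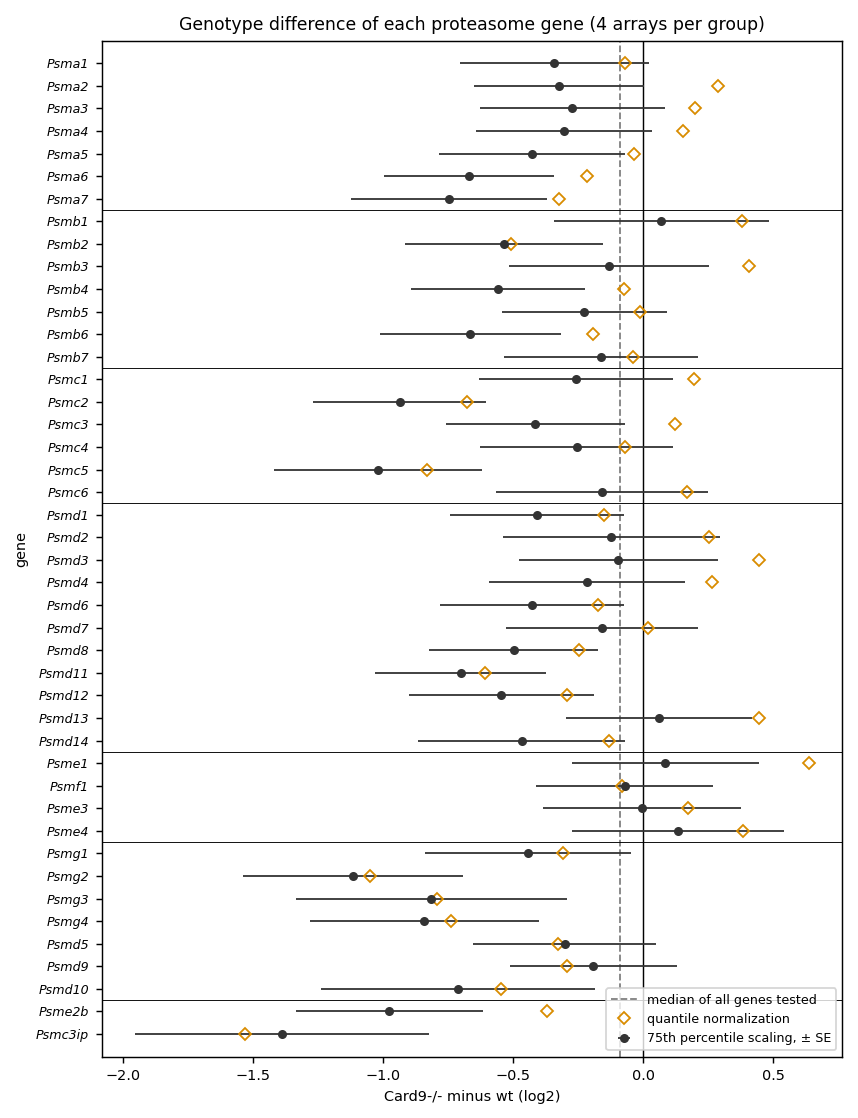
Genotype difference (x axis, Card9-/- minus wt, log2) of each of the 44 tested genes (y axis, grouped by role), with 4 arrays per group. Black points with bars are the values with their SE under 75th percentile scaling, open diamonds are the values under quantile normalization, and the dashed line is the median of all genes, -0.088. Black points lie left of 0 for 40 genes and diamonds for 28.

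The difference of the group depended on how the arrays were put on one scale. With quantile normalization, which gives every array the same distribution of signals, 28 of 44 members were lower and their median was -0.077 (all genes -0.010). In the authors' series matrix, whose columns share one distribution and which is therefore not independent of that setting, 25 of 41 members were lower with a median of -0.080. With each array scaled to its median instead, all 44 were lower with a median of -0.55, and the median of all genes was -0.26. The members' spots were bright, with a median percentile of 93.2 to 96.1 among the spots of each array, which describes the spots and not the abundance of the RNA. The bright end of the signal differed between the genotypes: the 95th percentile lay 6.11, 6.23, 6.73 and 6.22 log2 units above the 75th on the wt arrays, and 5.57, 5.92, 5.64 and 5.78 on the Card9-/- arrays. On each Card9-/- array this distance was smaller than on each wt array.

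**Figure D2:**
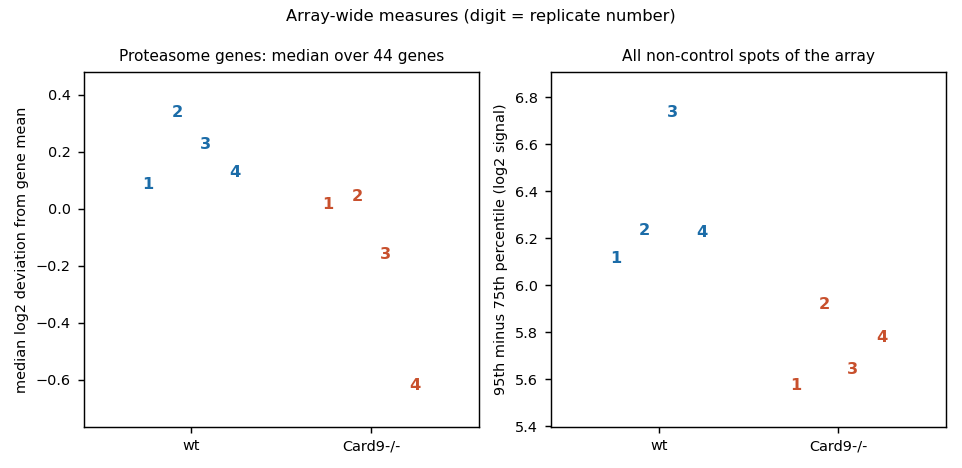
Left, median over the 44 genes of the log2 deviation from each gene's own mean (y axis). Right, distance from the 75th to the 95th percentile of log2 signal over all non-control spots (y axis). Digits are replicate numbers and the x axis is the genotype. In both panels the wt arrays lie above the Card9-/- arrays, and Card9-/- replicate 4 lies at -0.62 on the left.

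One array weighed on these values. The members' median deviation from their own means was 0.085, 0.34, 0.23 and 0.13 on wt replicates 1 to 4, and 0.014, 0.042, -0.16 and -0.62 on Card9-/- replicates 1 to 4. For all genes Card9-/- replicate 4 was at -0.21. This array held the lowest level in 30 of the 42 genes with a proteasome role. It also had the highest summed level of red cell markers (12.19, against 7.34 to 10.47 on the other arrays) and of neutrophil markers (9.65, against 6.53 to 9.03), and their part in its low proteasome values was not tested. Without it the median difference was -0.23, with 34 of 44 members lower, and the median of all genes was -0.046. By role the medians were then -0.25 in the alpha ring (7 of 7 lower), -0.14 in the beta ring (5 of 7), -0.20 in the ATPases (5 of 6), -0.23 in the other base and lid subunits (7 of 11) and 0.12 in activators and inhibitor (1 of 4). It is also the array that shared a slide with the wt group: against it alone, within slide 1, the median was -0.85 with 41 of 44 members lower and -0.26 for all genes. Without the library labelled wt replicate 1 the median was -0.40, and without wt replicates 3 and 4 together it was -0.39.

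**Figure D3:**
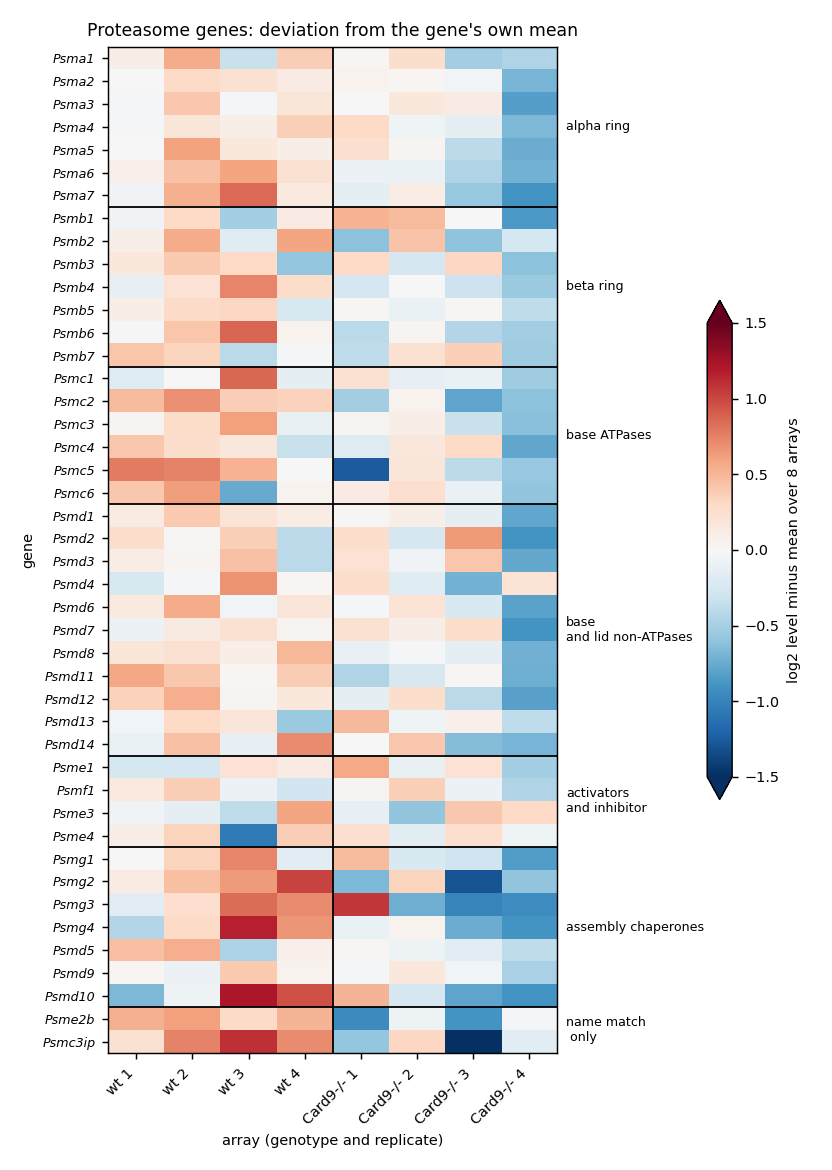
Deviation of each gene's log2 level from its own mean over 8 arrays, with genes by role (rows) and arrays by genotype and replicate (columns). Red is above the gene's mean, blue below, and the colour scale ends at 1.5 in each direction. The column of Card9-/- replicate 4 is blue for most genes, and it holds the lowest level in 30 of 42 genes with a proteasome role.

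The alpha ring forms the ends of the core, where the tails of its subunits gate the channel. All 7 tested alpha genes had a lower mean in Card9-/- under 75th percentile scaling (median -0.34), but 4 of 7 with quantile normalization (median -0.036). Psma6 gave levels of 4.99, 5.35, 5.50 and 5.14 in wt and 4.83, 4.82, 4.46 and 4.20 in Card9-/-. Its groups did not overlap. The difference was -0.67 (SE 0.33, limma adjusted p = 0.726, exact two-sided permutation p = 0.0286, the smallest that 4 against 4 arrays allow), and -0.22 with quantile normalization. Groups of 4 that do not overlap always give this permutation p, which was not adjusted for the number of genes. Psma7, another ring subunit, gave 4.74, 5.32, 5.64 and 4.94 in wt and 4.65, 4.90, 4.23 and 3.89 in Card9-/-. Card9-/- replicate 2 overlapped the wt range, and the difference was -0.75 (SE 0.38), or -0.32 with quantile normalization. Psma5 differed by -0.43 (SE 0.36) and Psma2 by -0.32 (SE 0.33), with overlapping groups. The levels of Psma2 were 5.75, 6.02, 5.97 and 5.87 in wt and 5.80, 5.78, 5.70 and 5.05 in Card9-/-. Only Card9-/- replicate 4 stood clearly below the other arrays there. The other 3 alpha genes lay between -0.34 and -0.27.

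The beta ring holds the proteolytic sites. Of its 7 tested genes, 6 had a lower mean in Card9-/- (median -0.23), and 5 with quantile normalization (median -0.038). Psmb6, the subunit with caspase-like activity, gave 5.11, 5.54, 6.0 and 5.18 in wt and 4.73, 5.17, 4.68 and 4.61 in Card9-/-. Card9-/- replicate 2 reached the lower wt arrays, and the difference was -0.66 (SE 0.35, limma adjusted p = 0.750), or -0.19 with quantile normalization. Psmb5, the subunit with chymotrypsin-like activity and the main target of proteasome inhibitor drugs, gave 3.10, 3.30, 3.32 and 2.77 in wt and 3.02, 2.91, 3.03 and 2.63 in Card9-/-. Its groups overlapped, with wt replicate 4 among the Card9-/- arrays, and the difference was -0.23 (SE 0.32). Psmb7, the subunit with trypsin-like activity, differed by -0.16 (SE 0.37). None of these genes for the constitutive proteolytic subunits passed the test, and the groups of each overlapped. Among the structural beta subunits Psmb4 differed by -0.56 (SE 0.34) and Psmb2 by -0.53 (SE 0.38), both with overlapping groups (-0.074 and -0.51 with quantile normalization), and Psmb1 by 0.071 (SE 0.41).

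The immunoproteasome subunits, which replace these proteolytic subunits in immune cells, were set beside them. Psmb10 differed by -1.05 (SE 0.49), Psmb8 by -0.33 (SE 0.44) and Psmb9 by 0.0097 (SE 0.56), and 0 of 3 passed by limma, with 0 at an unadjusted p under 0.05. The levels of Psmb10 were 4.19, 4.51, 6.17 and 5.61 in wt and 4.14, 4.53, 3.76 and 3.83 in Card9-/-. Its high arrays were wt replicates 3 and 4, those with the high macrophage markers.

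The 6 ATPases form the ring of the cap that unfolds substrates and opens the gate. All 6 had a lower mean in Card9-/- (median -0.34), but 3 of 6 with quantile normalization (median 0.027). Psmc2 gave 4.10, 4.31, 3.99 and 3.98 in wt and 3.10, 3.68, 2.84 and 3.01 in Card9-/-. The groups did not overlap, and each Card9-/- array lay below the lowest wt array. The difference was -0.94 (SE 0.33), a level 1.91-fold higher in wt. Its limma adjusted p was 0.591, the lowest among the members. The exact two-sided permutation p was 0.0286, unadjusted, as for any groups of 4 that do not overlap. With quantile normalization the difference was -0.68. A second Psmc2 probe, assigned to another transcript of the gene, differed by 0.79, with levels of 0.34, 0.38, -1.14 and -1.21 in wt and 0.35, 0.42, 0.89 and -0.12 in Card9-/-. The difference seen with the first probe was therefore not seen with the second, on which wt replicates 3 and 4 were low.

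Psmc5, another ATPase, gave 3.39, 3.36, 3.14 and 2.63 in wt and 1.37, 2.80, 2.22 and 2.06 in Card9-/- with the probe shown above. Card9-/- replicate 2 lay above wt replicate 4, and the lowest array was Card9-/- replicate 1. The difference was -1.02 (SE 0.40, limma adjusted p = 0.625), 2.02-fold, and -0.83 with quantile normalization. Psmc3 differed by -0.41 (SE 0.34) and Psmc1 by -0.26 (SE 0.37). With quantile normalization these turned to 0.12 and 0.20. Psmc4 and Psmc6 differed by -0.25 and -0.16.

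**Figure D4:**
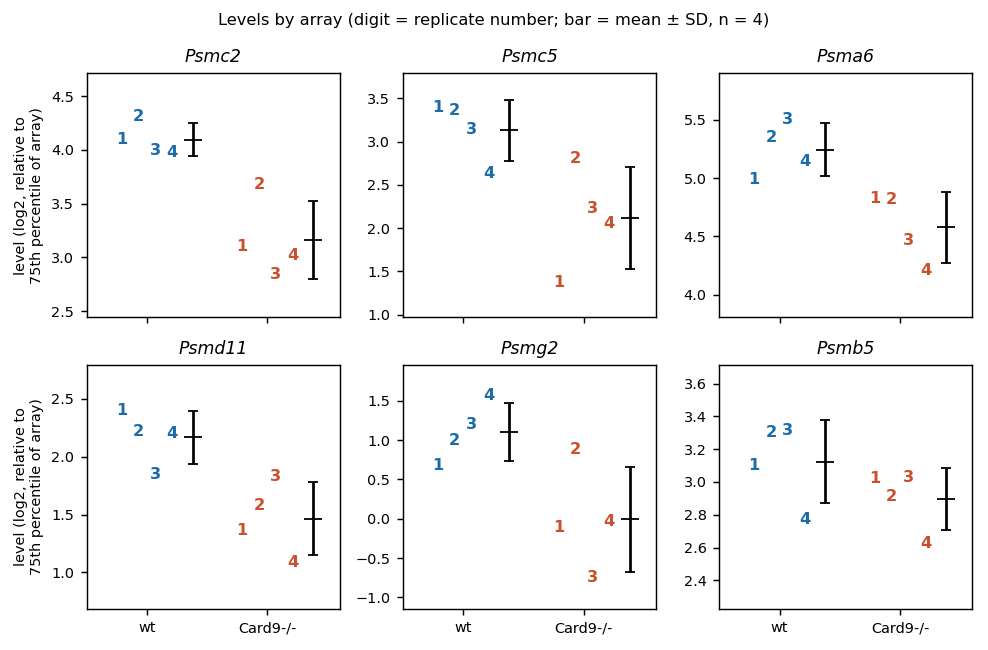
Levels (y axis, log2 relative to the array's 75th percentile) of 6 genes by genotype (x axis). Digits mark arrays by replicate number and bars give mean ± SD (n = 4), and each panel has its own axis range. The groups do not overlap for Psmc2, Psma6 and Psmd11, and overlap for Psmc5, Psmg2 and Psmb5.

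The other subunits of base and lid bind ubiquitin, hold the scaffold and cut ubiquitin chains off. A lower mean in Card9-/- was found for 10 of 11 (median -0.41), but for 6 of 11 with quantile normalization (median -0.13). Psmd11, a lid scaffold subunit, gave 2.40, 2.22, 1.84 and 2.20 in wt and 1.36, 1.58, 1.83 and 1.09 in Card9-/-. The groups did not overlap, though Card9-/- replicate 3 lay just under wt replicate 3. The difference was -0.70 (SE 0.33, limma adjusted p = 0.707), and -0.61 with quantile normalization. Psmd8, also of the lid, gave 3.52, 3.57, 3.44 and 3.84 in wt and 3.23, 3.31, 3.21 and 2.62 in Card9-/-. These groups were separate too, by a small gap, with Card9-/- replicate 4 far below the rest, and the difference was -0.50 (SE 0.32), or -0.25 with quantile normalization. Psmd1, the base scaffold, gave 3.49, 3.76, 3.56 and 3.49 in wt and 3.39, 3.46, 3.23 and 2.59 in Card9-/-. Here too the groups were separate, by less than the spread within each, and the difference was -0.41 (SE 0.34), or -0.15 with quantile normalization. Psmd12 differed by -0.54 (SE 0.35), with overlapping groups, and by -0.29 with quantile normalization.

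The deubiquitinase and the ubiquitin receptors of the cap follow. Psmd14, the deubiquitinase that removes the chain before degradation, gave 4.22, 4.76, 4.20 and 5.03 in wt and 4.33, 4.73, 3.67 and 3.63 in Card9-/-, with overlapping groups and a difference of -0.47 (SE 0.40), or -0.13 with quantile normalization. Its upstream probe on the same transcript differed by 0.21. Psmd4, a ubiquitin receptor, differed by -0.21 (SE 0.38) and by 0.26 with quantile normalization. Psmd2, which binds ubiquitin-like domains of shuttle proteins, differed by -0.12 (SE 0.42), by 0.16 without Card9-/- replicate 4 and by 0.25 with quantile normalization. Its upstream probe on the same transcript differed by -0.75. That probe gave 0.60, 0.29, 0.96 and -0.15 in wt and -0.84, -0.13, -0.0071 and -0.30 in Card9-/-, with overlapping groups. The remaining 4 genes of the class lay between -0.43 (Psmd6) and 0.062 (Psmd13).

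Activators and the inhibitor bind the ends of the core in place of the cap. Their median difference was 0.040 with 2 of 4 genes lower, and 0.28 with 1 of 4 lower under quantile normalization. Psme1, a subunit of the interferon-induced activator, gave 5.37, 5.38, 5.86 and 5.76 in wt and 6.21, 5.52, 5.85 and 5.13 in Card9-/-. Its groups overlapped throughout, with a difference of 0.086 (SE 0.36), and 0.64 under quantile normalization. Psme3, the nuclear activator, differed by -0.0052 (SE 0.38), Psme4, an activator known from histone degradation, by 0.13 (SE 0.41), and Psmf1, named as an inhibitor, by -0.070 (SE 0.34). Psmf1 had an upstream probe on the same transcript that differed by 0.88, with levels of -0.66, -0.82, -1.64 and -1.14 in wt and -0.058, -0.28, -0.42 and 0.0023 in Card9-/-. On that probe the Card9-/- arrays all lay above the wt arrays, which the downstream probe did not show.

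Assembly chaperones build the particle and leave it: Psmg1 to Psmg4 guide the alpha ring, and Psmd5, Psmd9 and Psmd10 the base. All 7 had a lower mean in Card9-/- (median -0.71) under 75th percentile scaling, and also with quantile normalization (median -0.55) and with median scaling (median -0.89). With normexp background correction 6 of 7 were lower, and 6 of 6 with the series matrix. Without wt replicates 3 and 4, 6 of 7 were lower with a median of -0.39, and without Card9-/- replicate 4 all 7 with a median of -0.53. None passed by limma (0 of 7), and 1 of 7 had an unadjusted p under 0.05. That gene, Psmg2, gave 0.68, 1.00, 1.19 and 1.56 in wt and -0.12, 0.88, -0.75 and -0.040 in Card9-/-. Card9-/- replicate 2 lay within the wt range, and the difference was -1.11 (SE 0.42, limma adjusted p = 0.614). A Psmg2 probe assigned to another transcript differed by -0.24, with Card9-/- replicate 1 the highest array at 0.80. A further Psmg2 probe differed by -1.07 and was well above background on 2 Card9-/- arrays. Psmg4 differed by -0.84 (SE 0.44), or -0.74 with quantile normalization, with wt replicate 3 high at 2.20 and wt replicate 1 at 0.59. Psmg3 gave 0.14, 0.56, 1.14 and 1.01 in wt and 1.36, -0.43, -0.70 and -0.64 in Card9-/-. Card9-/- replicate 1 was thus the highest of all arrays and the other Card9-/- arrays the lowest, with a difference of -0.81 (SE 0.52). Psmd10, an X-linked gene also known as an oncoprotein of liver, gave 1.29, 1.89, 3.18 and 2.92 in wt and 2.48, 1.72, 1.18 and 1.06 in Card9-/-. The high arrays were again wt replicates 3 and 4, and the difference was -0.71 (SE 0.53). Psmg1, Psmd5 and Psmd9 lay between -0.44 and -0.19.

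The genes that met only the name rule gave values of their own. Psme2b gave 7.05, 7.14, 6.80 and 7.02 in wt and 5.56, 6.44, 5.62 and 6.49 in Card9-/-. The groups did not overlap, and the difference was -0.97 (SE 0.36, limma adjusted p = 0.609), or -0.37 with quantile normalization, and an upstream probe differed by -0.049. A copy of Psme2 may share its sequence, so which of these genes the signal comes from is uncertain. Psmc3ip differed by -1.39 (SE 0.56) and by -0.11 with normexp background correction, and was well above background on 4 wt and 3 Card9-/- arrays.

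Several members had probes at different places of one transcript, which shows whether a difference holds along the RNA. For 15 members a pair of probes of one transcript lay at least 100 bases apart. The median difference was -0.12 with the upstream probes and -0.30 with the downstream probes, against -0.040 and -0.11 over 3733 genes with such a pair. The downstream minus upstream value, centred on its mean over 8 arrays, had a median of -0.35, -0.26, 0.93 and 0.14 on wt replicates 1 to 4 and 0.26, -0.35, -0.19 and -0.082 on Card9-/- replicates 1 to 4. Over all genes with a pair it was -0.28, -0.10, 0.34 and 0.21, then 0.19, 0.0031, -0.079 and -0.23. Thus wt replicate 3 gave relatively more downstream signal than the other arrays, in these members and over all such genes. The part of this in the genotype differences was not tested, but without wt replicate 3 the members' median was -0.41.

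**Figure D5:**
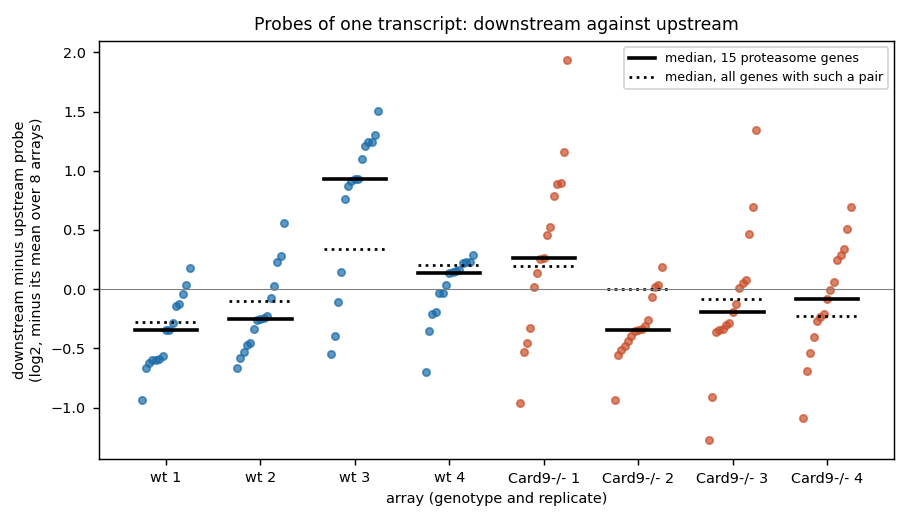
Downstream minus upstream probe of one transcript (y axis, log2, centred on its mean over 8 arrays) for 15 genes (points) on each array (x axis). Solid lines are medians of these genes and dotted lines medians of all 3733 genes with such a pair. The median of wt replicate 3 is the highest, at 0.93, while the highest single point is Psma3 on Card9-/- replicate 1 (1.94).

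Among these pairs on one transcript, the genotype difference of Psma3 differed most between its probes. Its upstream probe, shown above, gave 2.78, 3.10, 2.55 and 3.05 in wt and 0.23, 2.68, 0.95 and 2.04 in Card9-/-, a difference of -1.39. Its downstream probe gave 5.10, 5.52, 5.11 and 5.30 in wt and 5.12, 5.28, 5.25 and 4.30 in Card9-/-, a difference of -0.27 (SE 0.35). The upstream signal was low in Card9-/- replicates 1 and 3, the arrays of slide 2, where the downstream probe was not low. Psma6, by contrast, was lower in mean with both probes, with a difference of -1.02 upstream and of -0.67 downstream, though neither was called.

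Genes that act with the proteasome were read from lists of known function. Among 11 other parts and partners 8 had a lower mean in Card9-/- and 0 passed by limma, with 0 at an unadjusted p under 0.05. Of these, Sem1, a small lid subunit, differed by -0.85 (SE 0.39). Its levels were 5.47, 5.86, 6.87 and 6.58 in wt and 5.16, 5.60, 5.28 and 5.35 in Card9-/-. The groups of Sem1 overlapped, and its high arrays were wt replicates 3 and 4. Txnl1, a thioredoxin bound to the cap, differed by -0.64 (SE 0.33) with groups that did not overlap. The levels of Txnl1 were 3.31, 3.67, 3.68 and 3.10 in wt and 2.77, 2.97, 3.03 and 2.46 in Card9-/-. Among 9 genes that control subunit transcription 5 were lower and 0 passed (0 at an unadjusted p under 0.05). Nfe2l1, the factor that induces subunit genes when proteasome activity is short, gave 2.49, 2.51, 4.09 and 3.12 in wt and 2.56, 2.47, 2.70 and 1.90 in Card9-/-, a difference of -0.65 (SE 0.44). Nfe2l2, the factor of the oxidative stress response, differed by -1.02 (SE 0.62), with 2.60 and 3.01 in wt replicates 1 and 2 but 5.36 and 4.92 in wt replicates 3 and 4. For both genes wt replicates 1 and 2 did not lie above the range of the Card9-/- arrays, and wt replicates 3 and 4 did.

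Ubiquitin supply and delivery were read last. Of 6 genes for ubiquitin and its activating enzymes 3 were lower, with Ubb at 0.38 (SE 0.39) and Rps27a at -0.33 (SE 0.35). Of 8 genes that deliver substrates 6 were lower, with Ufd1 at -0.36 (SE 0.32) and Nploc4 at -0.29 (SE 0.33), partners of the unfoldase Vcp, which itself differed by -0.095 (SE 0.34). None of the genes in either list passed by limma, with 0 at an unadjusted p under 0.05.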

How the data were processed

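Each deposited scanner file gives spot intensity, background-subtracted by Agilent Feature Extraction (version 10.7.1.1, per the file headers) and not scaled between arrays. The log2 values of the authors' series matrix served only as an alternative. Its columns share one distribution (median 4.48 in each), as quantile normalization gives, and the labels do not say how it was made. Of its rows, 7075 of 56745, shifted by 1 identifier, were left out. Levels are log2 signals after subtraction of each array's 75th percentile over non-control spots. A probe had to be above background in at least 3 arrays of either group, and a gene was represented by its probe of highest mean over the 8 arrays. Coordinates of probes are those of the files (mm9). The genotype difference was fitted in R 4.3.3 by limma 3.58.1 over all 18603 genes, two-sided, with Benjamini-Hochberg adjustment at 0.05. Files were read by the package data.table (version 1.17.8). The fit function was also run on simulated independent values with a capped spread and planted differences larger than any of the members. That run does not test the fit at the size of the members' differences or with the slides of these arrays. The exact permutation test used all 70 assignments of the 8 arrays, so the smallest p is 0.0286. The number of arrays limits the precision.

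Named are members past the threshold, or else the 4 of each role with the smallest unadjusted p, and those chosen for known function, and of each partner list the 2 with the smallest p. Values of other members, of Vcp and of second probes were named after they were seen. The members and lists were chosen with earlier results of these data known. Alternatives changed scaling, background correction, filter, probe, moderation, block, source of values and arrays. The choices of the probe of lowest and of highest position, each counted in its own assigned transcript, were added after seeing the data. So was the fit without wt replicates 3 and 4.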

Additional observations from a re-analysis of the deposited data

Results flagged for a closer look

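Of 56 groups of 4 levels examined, 3 held an array that stood far from the others by Dixon's 95% criterion, and chance alone flags about 1 in 20 such groups. Psma2 was at 5.05 in Card9-/- replicate 4, where the other Card9-/- arrays lay at 5.70 to 5.80. Psmd8 was at 2.62 in Card9-/- replicate 4, against 3.21 to 3.31. Psmg3 was at 1.36 in Card9-/- replicate 1, against -0.695 to -0.426.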

How the results depend on the processing

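The count of proteasome genes past the threshold was 0 under the main setting and under all 23 alternatives. Their median difference was -0.37, and moved to -0.077 with quantile normalization, to -0.080 with the series matrix, and to -0.85 with slide as a block and within slide 1, fits that both rest on Card9-/- replicate 4. Leaving out 1 array at a time it ranged from -0.46 to -0.23, the latter without Card9-/- replicate 4. The count of all genes past the threshold was 5, and became 0 when probes had to be well above background on all 8 arrays, 0 with slide as a block, 0 within slide 1 and 3 with the replicate block. Leaving out single arrays it was 5 to 6. Replicate numbers did not pair the arrays: deviations of equal numbers correlated at -0.13, 0.25, -0.12 and -0.28. With the replicate block the members' count stayed at 0 and their median at -0.37.

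Of the values of 28 named members under these alternatives, 599 kept their sign and 44 turned it, and the cause was not tested. With median scaling Psme4 turned to -0.041 and Psme1 to -0.090. With quantile normalization Psme3 turned to 0.17, Psma2 to 0.29, Psmc3 to 0.12, Psmc1 to 0.20, Psmd4 to 0.26 and Psmd2 to 0.25. With the series matrix the same members were at 0.17, 0.16, 0.042, 0.15, 0.19 and 0.22. With normexp Psme1 was at -0.038. With all probes of a gene averaged Psmf1 was at 0.40, Psme3 at 0.51, Psmd14 at 0.12 and Psmd4 at 0.20. With slide as a block and within slide 1 Psme1 was at -0.46, Psme3 at 0.30 and Psmd4 at 0.10. With wt replicates 1 and 2 averaged Psmf1 was at 0.0035. With the probe of lowest position, counted in its own assigned transcript, Psmf1 was at 0.88, Psme3 at 1.02, Psmd14 at 0.21 and Psmd4 at 0.38. With the probe of highest position, counted in the same way, Psmc2 was at 0.79 and Psmd14 at 0.62. Both of these probes are assigned to other transcripts than the main probes and lie upstream of them on the genome. Ranking positions across transcripts thus does not give the order along the gene. Without wt replicates 3 and 4 Psme4 was at -0.15, Psme3 at 0.094, Psmd10 at 0.020 and Psmd4 at 0.029. Leaving out single arrays, including those without wt replicates 3 and 4 together, Psmf1 ranged from -0.29 to 0.070, Psme4 from -0.20 to 0.28, Psme3 from -0.14 to 0.19, Psmd10 from -1.06 to 0.020, Psmd4 from -0.34 to 0.029, Psme1 from -0.090 to 0.30 and Psmd2 from -0.35 to 0.16.

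With 4 arrays per group and an SE of 0.32 to 0.56 per member, differences of the size of the members' median could not be called singly. Slide and genotype are separated by 1 array only.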
